A study of Homo sapiens with 2 samples.

Results

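Some replication initiation peaks of U2OS cells stand in several separate pieces in the deposited list of peaks shared by 2 libraries. These peaks are described here. Each line of the list carries the name of a replicate 1 peak, and some names are repeated on several lines that do not overlap. The lines are read here as the intersection of replicate 1 peaks with replicate 2 peaks, so that a replicate 1 peak meeting several separate replicate 2 peaks would stand on several lines, its pieces. That reading is taken from the repeated names, since no source used here states the command that made the list, and every statement on pieces and gaps rests on it. Peaks whose name stood on 3 or more lines were selected on chromosomes 1 to 22 and X. There were 6505 such multi-piece peaks among 163014 named peaks, a share of 3.99% (exact 95% binomial interval 3.90% to 4.09%). A further 18290 peaks (11.2%) stood on 2 lines and 138219 (84.8%) on 1 line.

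U2OS is a human osteosarcoma cell line, and both libraries came from unmodified (WT) cells. A double thymidine block had held the cells at the G1/S transition, and they were collected 2 hours after release. The libraries form a single group, with no unsynchronised or undigested control analysed here, and no label states that they came from separate cultures. The depth behind each peak is unknown.

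DNA replication begins at origins, where short nascent strands are made from RNA primers. Nascent strand sequencing purifies short single strands and digests them with lambda exonuclease, an enzyme that spares strands protected by such a primer, so that sequenced fragments mark places of initiation. In human cells initiation may be focused at a site or dispersed over a broader zone with several preferred sites, and zones are activated in a defined order through S phase, the replication timing programme. A broad peak caller joins neighbouring enriched stretches into 1 peak when the distance between them is small enough.

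The selection used the number of lines, a value read from these data. Span and coverage follow in part from it and are given as descriptions. Fold enrichment is a value of replicate 1 alone and the timing class comes from other files, but both libraries enter as 1 intersected set. With no second set to compare, no test between conditions or replicates was possible, and p-values are not given. Errors below are standard deviations (SD) between chromosomes within that set, and directions are counted over chromosomes. Binomial intervals include only counting error and assume that peaks are independent.

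Multi-piece peaks made up a small share of the peaks but a larger share of the shared sequence. They contributed 23253 of 198052 pieces (11.7%) and 15.7 of 84.1 Mb of shared sequence (18.7%). Of the 6505, 4312 stood on 3 lines, 1339 on 4, 504 on 5, 184 on 6 and 86 on 7, and the most divided peak stood on 16. The pieces of a name never overlapped and always lay on 1 chromosome. Peaks on 2 lines contributed 22.3% of the shared sequence and peaks on 1 line 59.0%.

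**Figure D1:**
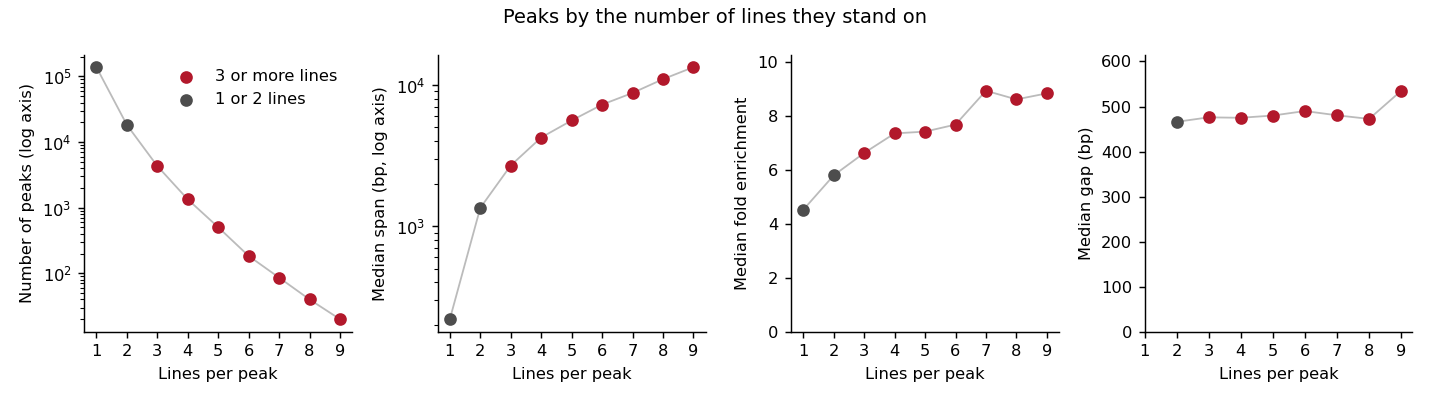
Number of peaks, median span, median fold enrichment and median gap between pieces for peaks standing on 1 to 9 lines (line counts held by at least 20 peaks). Peaks on 3 or more lines are red; span and fold were larger at higher line counts, with fold at 8.94 for 7 lines and 8.62 for 8, while the median gap stayed between 466 and 490 bp up to 8 lines and was 535 bp in the 20 peaks on 9 lines.

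The peaks with most pieces show what such a division looks like. The most divided peak lay on chromosome 19 from 36782968 to 36800135 (hg19, as are all positions here). Its 16 pieces were between 87 and 963 bp wide and together covered 33.7% of a span of 17168 bp, with gaps of 354 to 2357 bp. Its fold enrichment was only 3.81, below the median of all peaks (4.73). Another peak on the same chromosome, from 37765324 to 37776963, had 15 pieces of 85 to 1012 bp that covered 30.4% of the span, at 4.61-fold. Both were rows of short pieces under the name of a weakly enriched replicate 1 peak.

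Another peak had 15 pieces, and 4 peaks tied at 13, of which the 2 of wider span come first here. On chromosome 3 from 48672803 to 48695607, 15 pieces of 118 to 3941 bp covered 68.1% of 22805 bp at 11.7-fold. On chromosome 8 from 145718083 to 145749318, 13 pieces covered 77.1% of 31236 bp, the widest span of all multi-piece peaks, at 10.1-fold. Its widest piece alone measured 7165 bp. On chromosome 2 from 72358060 to 72378393, 13 pieces covered 70.1% of 20334 bp at 9.34-fold. These 3 peaks were also the widest of all. The remaining peaks on 13 lines were narrower and less covered. On chromosome 12 from 133068634 to 133085658, the pieces covered 59.4% of 17025 bp at 9.14-fold, and on chromosome 1 from 2594919 to 2612136 they covered 57.5% of 17218 bp at 4.81-fold. Peaks with most pieces thus ranged from mostly gap to mostly covered.

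**Figure D2:**
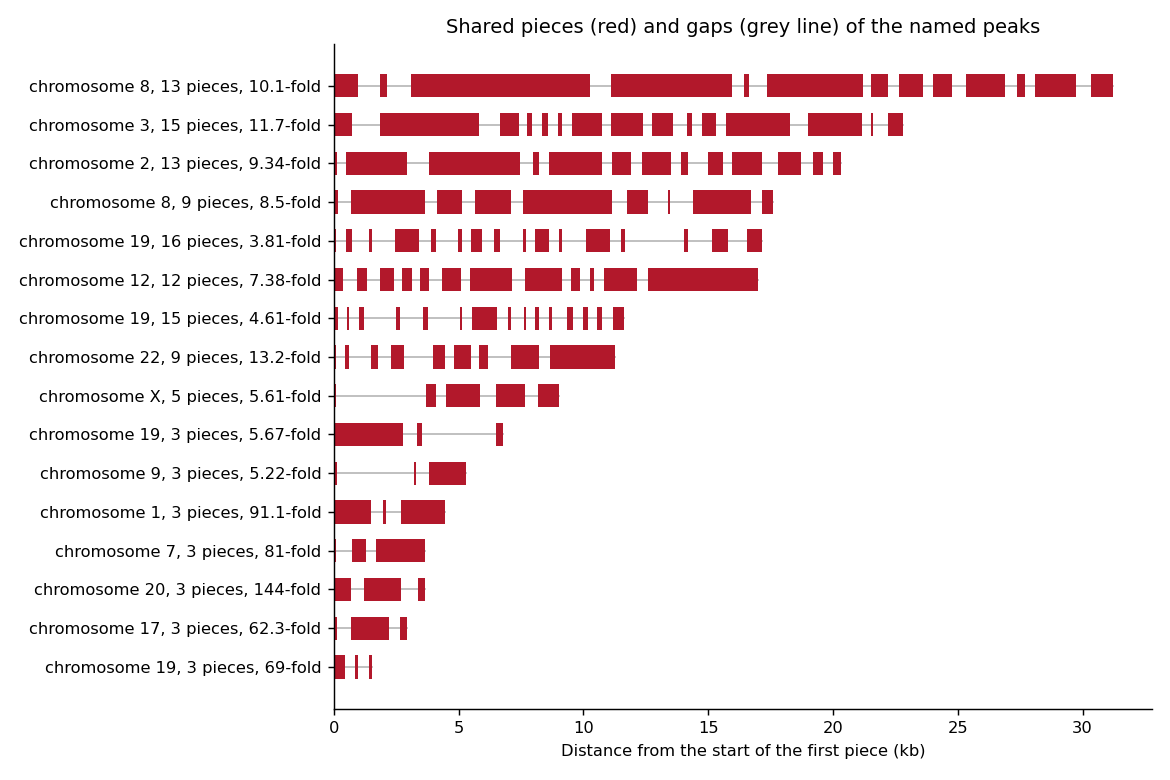
Shared pieces (red bars) and gaps (grey line) of the named multi-piece peaks, as distance in kb from the start of the first piece, ordered by span, with chromosome, number of pieces and fold enrichment at the left. The 2 peaks on chromosome 19 with 16 and 15 pieces consist mostly of gaps, whereas the peak of 31236 bp on chromosome 8 is mostly covered.

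The 5 most enriched multi-piece peaks all stood on 3 lines, with spans of 1508 to 4446 bp. The highest, at 144-fold, lay on chromosome 20 from 62465715 to 62469365, with pieces of 702, 1485 and 290 bp separated by 493 and 681 bp. On chromosome 1 from 228400403 to 228404848, a peak of 91.1-fold had a narrow piece of 146 bp between flanking pieces of 1477 and 1774 bp. On chromosome 7 from 334190 to 337859 (81.0-fold) the pieces widened along the sequence, at 91, 561 and 1983 bp. On chromosome 19 from 48921583 to 48923090 (69.0-fold) they narrowed, at 463, 142 and 108 bp. The fifth, on chromosome 17 from 78465271 to 78468200 (62.3-fold), had its widest piece of 1513 bp in the middle. All 5 were in the early timing class. Standing on 3 lines, each had 2 gaps by the selection. Their narrowest gap was 380 bp, where the minimum over all multi-piece peaks was 338 bp.

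Gaps between pieces had a narrow and asymmetric distribution. The 16748 gaps inside multi-piece peaks had a median of 478 bp, with quartiles of 396 and 637 bp, and 54.9% were under 500 bp. Only 1073 (6.41%) reached 1000 bp. No gap was narrower than 338 bp, and the commonest class was 350 to 400 bp (20.7% of gaps). Pieces of different replicate 1 peaks, by comparison, were never closer than 402 bp. Of the gaps, 4566 (27.3%) were narrower than that. The 402 bp is a distance between shared pieces, so the replicate 1 peaks themselves, whose edges are not in the list, may stand closer. When pieces closer than 402 bp were joined, 4180 of the 6505 peaks (64.3%) still had 3 or more pieces. No label gives the merging distances used in peak calling, and their part in the gaps was not tested.

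**Figure D3:**
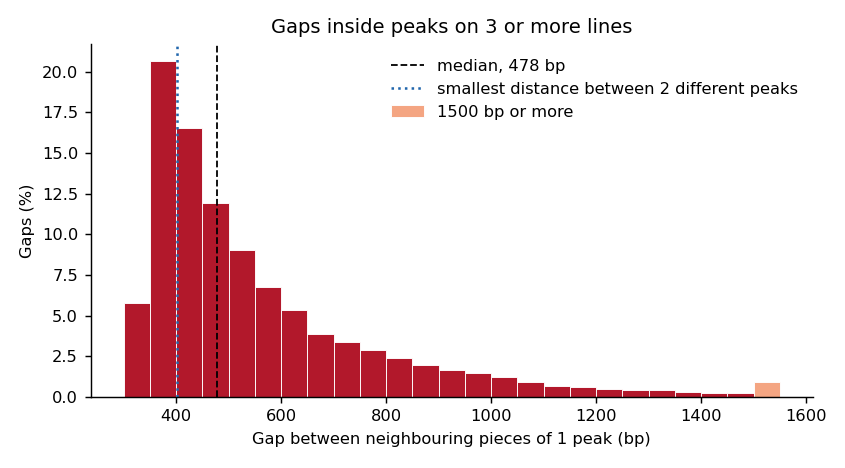
Distribution of the 16748 gaps between neighbouring pieces inside multi-piece peaks, in classes of 50 bp with gaps of 1500 bp or more (0.937%) gathered in the last bar. The dashed line marks the median of 478 bp and the dotted line the smallest distance between pieces of different peaks, 402 bp.

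Gap width hardly varied with any other property examined. The median gap was 476 bp in peaks on 3 lines, 475 bp on 4, 480 bp on 5 and 490 bp on 6, against 466 bp in peaks on 2 lines. Chromosome medians were 482 ± 16.6 bp (mean ± SD, n = 23), lowest at 464 bp (chromosome 2) and highest at 529 bp (chromosome 21). Across timing classes the median ran from 464 bp in very early to 494 bp in very late peaks. Within a peak the widest gap had a median of 638 bp and the narrowest one of 395 bp. In 1613 peaks (24.8%) every gap was narrower than 500 bp, and in 980 (15.1%) at least 1 gap reached 1000 bp.

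The 3 widest gaps isolated a small piece at the edge of a peak. On chromosome X from 58305291 to 58314301, a first piece of 95 bp was followed by a gap of 3615 bp and then by 4 pieces separated by 389 to 642 bp. On chromosome 9 from 133322495 to 133327770, pieces of 136 and 95 bp stood 3069 bp apart, ahead of another of 1473 bp. On chromosome 19 from 4058403 to 4065173, pieces of 2787 and 211 bp preceded a gap of 2943 bp and a last piece of 279 bp. Their fold enrichments were 5.61, 5.22 and 5.67, below the multi-piece median.

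Inner and end pieces differed in width. A piece with a gap on both sides lies wholly inside the replicate 1 peak, so in a plain intersection it is a complete replicate 2 peak, whereas first and last pieces may be clipped by the edge of the replicate 1 peak. The 10243 inner pieces had a median width of 479 bp (quartiles 226 and 932 bp) and none was under 84 bp. The 13010 end pieces had a median of 422 bp and went down to 1 bp. Pieces of peaks on 1 line, either end of which may be clipped, had a median of 219 bp. Among peaks on 3 lines the widest piece was the middle one in 35.8% (exact 95% interval 34.4% to 37.3%), the last in 32.6% and the first in 31.5%, so the sequence shared by both libraries was spread over the peak without a strong preference for its centre.

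The span from the first start to the last end had a median of 3262 bp in multi-piece peaks (quartiles 2336 and 4669 bp), against 1345 bp on 2 lines and 219 bp on 1 line. The ratio of medians to peaks on 1 line was 14.9, and it was at least 11.99 on all 23 chromosomes. The shortest multi-piece span was 1009 bp, since 3 pieces and 2 gaps of at least 338 bp must fit in it. Just inside the selection, peaks on 3 lines had a median span of 2684 bp and a median fold of 6.63. Just outside it, peaks on 2 lines had 1345 bp and 5.80-fold. The 28306 peaks with a span of at least 1 kb include every multi-piece peak, and 22.98% of them stood on 3 or more lines, 47.4% on 2 and 29.7% on 1. This span is that of the shared pieces, and the width of the replicate 1 peak itself is not in the list.

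Shared pieces covered most of the span in the typical multi-piece peak. This span begins and ends in a shared piece, so the shared part of the whole replicate 1 peak is not known. The covered share of the span had a median of 59.4% (quartiles 48.1% and 69.5%), with 58.6 ± 2.93% over chromosomes (n = 23), and in 1843 peaks (28.3%) it was under 50%. Peaks on 2 lines had a median of 60.8%. Coverage differed little by number of lines, from 58.6% on 3 lines to 62.7% on 7. It went with enrichment instead. Peaks on 3 lines were divided by fold into 4 groups of 1078. The covered share had medians of 46.0%, 55.7%, 63.4% and 69.5% from the group of lowest to that of highest fold. The median span in these groups was 2072, 2498, 2978.5 and 3377 bp, and the median gap within a peak was 524, 516.5, 516 and 495.5 bp. More enriched peaks thus differed in the length of their pieces more than in the width of their gaps. Over the 6505 peaks, fold had a Spearman correlation of 0.53 with the covered share, 0.47 with the span and −0.01 with the widest gap. These values describe peaks of 1 set that share library and depth.

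Multi-piece peaks had higher fold enrichment than undivided peaks overall. The median fold was 6.97 (quartiles 5.55 and 8.95), against 5.80 for peaks on 2 lines and 4.52 (3.68 and 6.002) for peaks on 1 line. The ratio to 1-line peaks was 1.54, and on chromosomes it was 1.53 ± 0.094 (mean ± SD, n = 23), above 1 on all 23. Chromosome medians of multi-piece peaks ran from 5.65 on chromosome 18 to 7.53 on chromosome 21, and those of 1-line peaks from 4.35 on chromosome 8 to 4.97 on chromosome 19, so the 2 ranges did not overlap. The −log10 q had a median of 11.8 in multi-piece peaks and 4.73 in 1-line peaks, and was higher on all 23 chromosomes. Folds of at least 20 occurred in 77 multi-piece peaks (1.18%, exact 95% interval 0.935% to 1.48%), 225 peaks on 2 lines (1.23%, 1.08% to 1.401%) and 1164 1-line peaks (0.842%, 0.795% to 0.892%), against 0.899% of all peaks. The intervals of multi-piece and 2-line peaks overlapped. The highest fold was 144 in multi-piece peaks and 319 in 1-line peaks.

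At like span the direction was the opposite. Wider peaks in general had higher folds, so peaks were compared in narrow span classes (4 to each doubling of span), with at least 20 peaks of both kinds in each. In all 9 such classes, from 1024 to 4871 bp, multi-piece peaks had the lower median fold. The weighted mean log2 ratio over these classes was −0.47, a ratio of 0.721, and it was below 0 on all 22 chromosomes where it could be computed (−0.51 ± 0.12, SD). Of the multi-piece peaks 77.4% entered this comparison, since wider 1-line peaks were too few. Between 2 and 3 kb, for example, the median fold was 6.22 in 1869 multi-piece peaks, 7.18 in 2896 peaks on 2 lines and 8.48 in 926 peaks on 1 line. Against peaks on 2 lines the weighted log2 ratio was −0.26, and it was below 0 on 22 of 23 chromosomes. When peaks were matched on the summed length of their pieces in place of the span, the difference from 1-line peaks was smaller, at a log2 ratio of −0.20 (ratio 0.868). The fold is that of the whole replicate 1 peak, gaps included. A peak of like span therefore differs in its shared length as well, with 55.7% of the span covered in multi-piece peaks of 2 to 3 kb and 77.2% in those on 2 lines.

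**Figure D4:**
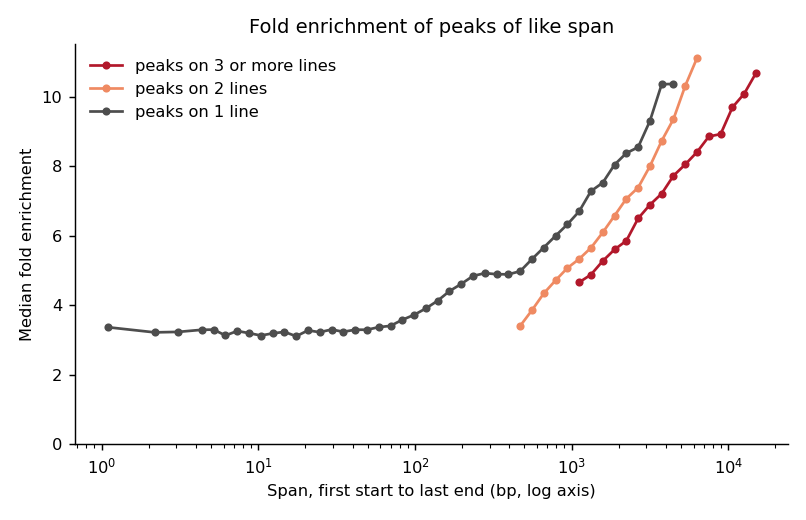
Median fold enrichment of replicate 1 peaks against span (log axis, 4 classes to each doubling of span, at least 20 peaks in each) for peaks on 3 or more lines, on 2 lines and on 1 line. In all 9 classes that hold all 3 kinds, from 1024 to 4871 bp, the curve of peaks on 3 or more lines runs lowest and that of peaks on 1 line highest.

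No peak of any kind met more than 1 timing interval, so a single class per peak is not a trait of multi-piece peaks. The mid early class held the largest share of multi-piece peaks, as of the other peaks. Of the 6455 with a class, 36.9% were mid early (exact 95% interval 35.8% to 38.1%), against 33.3% of peaks on 2 lines and 29.1% of peaks on 1 line. Very early peaks made up 10.6% of multi-piece peaks and 14.6% of 1-line peaks, late peaks 2.99% and 5.87%, and very late peaks 0.806% and 2.32%. Early (26.5% and 25.7%) and mid late (22.2% and 22.4%) shares were close. Counted the other way, multi-piece peaks were 4.91 per 100 peaks of the mid early class, 4.05 of the early, 3.95 of the mid late, 2.95 of the very early, 2.13 of the late and 1.49 of the very late class. On chromosomes with at least 100 peaks of the class, these values were 4.53 ± 1.79 for mid early (n = 23) and 2.45 ± 1.16 for very early (n = 23), so the spread between chromosomes was wide.

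The 3 earlier classes together held 74.0% of multi-piece peaks (exact 95% interval 72.9% to 75.1%) and 69.4% of 1-line peaks. This difference of 4.65 percentage points was not uniform. On single chromosomes it averaged 1.255 ± 8.64 points (n = 23) and was positive on 17. With 5 Mb left out at both chromosome ends it was 8.60 points, and against peaks on 2 lines it was 0.559 points. At like span it was −3.30 points, and the share was lower in multi-piece peaks in 7 of 9 span classes. On single chromosomes the difference at like span was negative on 14 of 22 (0.820 ± 12.1 points). These SDs describe single chromosomes and are not errors of the pooled differences. The direction varied between chromosomes and with the matching, so no difference in earlier classes beyond that of span can be stated from these data.

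Within classes, multi-piece peaks were alike in build. Median spans ran from 2733.5 bp in the 52 very late peaks to 3410 bp in the 1432 mid late peaks, and median folds from 5.49 in very late to 7.11 in mid early peaks. The covered share was 54.8% in late and 54.6% in very late peaks and between 58.9% and 60.1% in the other 4 classes. The most divided very late peak lay on chromosome 8 from 47084842 to 47102419, with 9 pieces at 8.497-fold. The most divided very early peak lay on chromosome 22 from 46298841 to 46310085, also with 9 pieces, at 13.2-fold. In the early class it was a peak of 12 pieces on chromosome 12 from 123460352 to 123477336 at 7.38-fold.

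**Figure D5:**
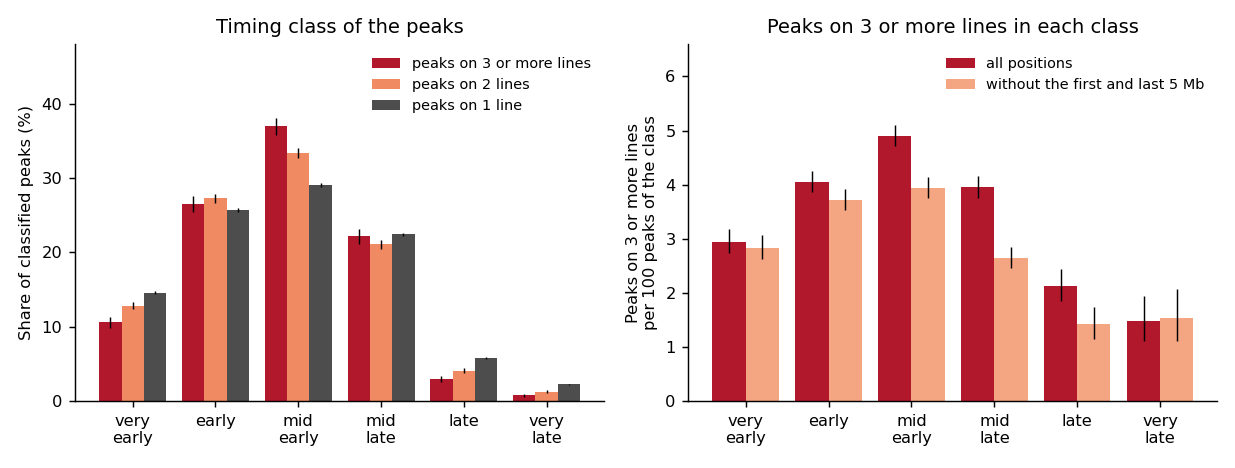
Left, share of classified peaks in each of 6 timing classes for peaks on 3 or more lines, 2 lines and 1 line; right, peaks on 3 or more lines per 100 peaks of each class, over all positions and with 5 Mb at both chromosome ends left out (bars with exact 95% binomial intervals). The mid early class has the highest value in both panels, 36.9% of multi-piece peaks and 4.91 per 100 peaks, and 3.95 per 100 away from the ends. Away from the ends its interval (3.76 to 4.15) overlaps that of the early class, at 3.72 per 100 (3.53 to 3.92).

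Multi-piece peaks often crossed the edge of the interval that gave them their class. In 848 of 6455 (13.1%, exact 95% interval 12.3% to 14.0%) a part of the peak lay outside its timing interval, against 5.74% of peaks on 2 lines and 1.37% of peaks on 1 line. At like span the difference from 1-line peaks was −1.36 points, negative on 10 and positive on 11 of 22 chromosomes, so the excess was not detectable at like span. Matched on the summed length of pieces in place of span, the difference was 4.08 points. The edges of the intervals that cut a peak were regular. All 427 interval ends that cut a multi-piece peak had coordinates whose last 2 digits were 02, and all 448 interval starts that did so had 01 or 02, counted from 0. Among uncut intervals of multi-piece peaks only 1.48% of ends had 02. Interval ends that cut other peaks were as regular, with 02 in all 519 for peaks on 2 lines and all 939 for peaks on 1 line. Beyond the cut side, the neighbouring classified peak had another timing class in 433 of 866 cases (50%). The next peak after an uncut multi-piece peak did in 5.12%. Peaks on 2 lines (43.4% and 7.48%) and on 1 line (45.7% and 11.7%) had a like contrast, so it was not particular to multi-piece peaks. Of the 23038 pieces of classified multi-piece peaks, 784 (3.40%) lay outside any part that was classified. The early peak of 12 pieces on chromosome 12 is an example, with an interval of 9552 bp for a span of 16985 bp.

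Another 50 multi-piece peaks (0.769%, exact 95% interval 0.571% to 1.01%) met no timing interval, against 0.167% of 1-line peaks. Of the 48 with a classified peak on both sides, 26 stood between 2 peaks of different classes.

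Chromosomes differed in how often their peaks were divided. Multi-piece peaks were 3.76 ± 1.33 per 100 peaks over 23 chromosomes. They were most frequent on chromosome 22 (5.94 per 100, exact 95% interval 5.39 to 6.54), 19 (5.81) and 17 (5.71), which did not differ beyond their counting error. They were rarest on chromosome 18 (1.30, 0.938 to 1.77) and 13 (1.47, 0.994 to 2.09). Over the 23 chromosomes this frequency had a Spearman correlation of 0.96 with the share of peaks of at least 1 kb. Every multi-piece peak is itself among the peaks of at least 1 kb, so part of this correlation was fixed in advance. Among peaks of at least 1 kb the frequency was 22.1 ± 3.49 per 100, from 13.6 on chromosome 18 to 26.9 on chromosome 11. There chromosomes 22, 19 and 17 were near the mean, at 23.4, 23.1 and 24.1, while chromosome 13 stayed low at 14.8.

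Multi-piece peaks gathered near the first and last listed peaks of chromosomes, which are the chromosome ends meant throughout. The list need not reach the end of a chromosome itself. How far it reaches was not examined, for chromosomes 13 and 21 included. Of all multi-piece peaks 32.8% lay within 5 Mb of the first or last listed peak of their chromosome (exact 95% interval 31.6% to 33.9%), against 23.7% of peaks on 2 lines and 17.2% of peaks on 1 line. The difference from 1-line peaks was 15.6 points, and it was positive on 20 of 23 chromosomes (18.7 ± 15.9 points). At like span it was 1.23 points, positive on 14 and negative on 8 of 22 chromosomes, so no excess near the ends was detectable among peaks of like width. On chromosome 21 the share near the ends was 92.3% of 65 multi-piece peaks and 58.7% of 1-line peaks, and on chromosome 13 it was 90.0% of 30 and 43.2%. On chromosome 3 it was lower in multi-piece peaks, at 5.65% of 283 and 8.60% of 1-line peaks. By class, the multi-piece peaks near an end numbered 842 in the mid early, 741 in the mid late and 340 in the early class. The share near an end was 51.7% of mid late multi-piece peaks and 25.6% of mid late 1-line peaks. In the mid early class it was 35.3% and 17.8%, and in the very early class 11.7% and 7.94%. In the very late class, with 10 multi-piece peaks near an end, it was 19.2% and 22.2%. Without these ends the mid late class had 2.65 multi-piece peaks per 100 in place of 3.95, and the very early class 2.84 in place of 2.95.

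On a finer scale multi-piece peaks were counted in windows of 1 Mb. Of 2842 windows with any peak, 984 (34.6%) held a multi-piece peak. The 72 windows with at least 20 held 30.9% of all multi-piece peaks and 10.4% of all peaks. These 72 were chosen by their count of multi-piece peaks, so a higher share of them was set by the choice. No value at like span is given for windows. The window with most was on chromosome 9 from 139000001 to 140000000, with 55 among 233 peaks (23.6%, exact 95% interval 18.3% to 29.6%). It was followed by chromosome 20 from 61000001 to 62000000 with 46 of 249. By share, among windows with at least 50 peaks, chromosome 8 from 47000001 to 48000000 came first, with 21 of 82 (25.6%, 16.6% to 36.4%). It lies away from the chromosome ends as meant here and holds the most divided very late peak. Another window away from the ends, chromosome 3 from 52000001 to 53000000, had 39 of 200 (19.5%). Distances of these windows to the centromere were not examined. These windows were named after their values were seen, and DNA copy number, which differs along the U2OS genome, was not analysed here.

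Before matching on span, multi-piece peaks had closer neighbours than other peaks, and these were more often multi-piece peaks. The next listed peak lay a median of 1418 bp away, against 1909 bp after peaks on 2 lines and 3435 bp after peaks on 1 line, a ratio of 0.413 to 1-line peaks that was below 1 on all 23 chromosomes. At like span the distance was not shorter (ratio 1.11), and longer on 19 of 22 chromosomes. Matched on summed length of pieces it was shorter, at a log2 ratio of −0.16. The next peak was itself a multi-piece peak in 10.8% of cases (703 of 6505, exact 95% interval 10.1% to 11.6%), in 6.86% after peaks on 2 lines and in 3.29% after peaks on 1 line. How often a multi-piece peak came next was not compared at like span. Uninterrupted runs were short, with 504 of 2 multi-piece peaks, 57 of 3, 24 of 4, 2 of 5 and 1 of 6. The run of 6 lay on chromosome 19 from 36756152 to 36800135, held 40 pieces and ended with the most divided peak of all. A run of 4 from 37759629 to 37794285 on the same chromosome, with 30 pieces, held the weakly enriched peak of 15 pieces.

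The replicate 1 peak that followed in the numbering was more often present in the shared list when the peak itself had several pieces. That was so for 82.6% of multi-piece peaks (exact 95% interval 81.6% to 83.5%), 77.3% of peaks on 2 lines and 71.6% of peaks on 1 line. The difference of 10.9 points from 1-line peaks was positive on all 23 chromosomes (10.6 ± 3.65 points). At like span it was −2.17 points, within the spread between chromosomes (−2.98 ± 6.87 points, n = 22) and negative on 16. Matched on summed length of pieces it was 1.715 points. Of the comparisons with 1-line peaks matched on span, only that of fold enrichment had the same direction on every chromosome where it could be computed.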

How the data were processed

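The nascent strand list joins 2 libraries of 1 group. Per the submitters' processing notes, BWA, MACS2 and build hg19 were used; versions, parameters and any control library are not stated in them. For each replicate 1 peak, whose library name its name carries, the authors deposited a fold ratio and a −log10 q. The score deposited by the authors was not used (it is the constant 1000 in the 6 timing lists, which served for coordinates and class only).

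Lines were grouped by peak name on chromosomes 1 to 22 and X. A peak took the class of the timing interval sharing most bases with its pieces. Comparisons at like span average, weighted by multi-piece peaks, over span classes with at least 20 peaks of both kinds (5 on single chromosomes). Chromosome values need 20 multi-piece peaks. The averaging was tested on simulated folds and classes. Depth is unknown, so no read-based interval is given. Named peaks are the 5 with most pieces, the 5 of highest fold, the 3 widest, the 3 with the widest gap and the most divided of each class. Members, lists and rules were chosen with earlier results of these data known. Coordinates count from 1 unless stated. Genes and sequences at these positions were not analysed here. Scripts ran in Python 3.11.15 with pandas 2.3.3, numpy 2.4.6, matplotlib 3.10.9 and scipy 1.17.1.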

Additional observations from a re-analysis of the deposited data

Results flagged for a closer look

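Outside chromosomes 1 to 22 and X, 27 of 994 named peaks stood on 3 or more lines (2.72%, exact 95% binomial interval 1.80% to 3.93%). On chromosomes 1 to 22 and X the share was 3.99% (3.90% to 4.09%), so it was not higher outside them. The 27 peaks lay on 16 sequences and had a median span of 2921 bp and a median fold of 6.96. Of the 4 peaks of the mitochondrial genome, 2 were among them.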

How the results depend on the processing

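Of 146 values recomputed under alternatives, 118 moved by less than the SD between chromosomes (counts, by less than 1.5 times). Another 24 moved further and 4 changed sign, all 4 of them at like span and within that SD in the main setting. The 118 include values that could not move. These are the values with pieces closer than 100 bp joined and with pieces in 1 class only, since no peak met more than 1 class. With peaks on 2 or more lines as members, there were 24795, with a span ratio of 7.54, a fold ratio of 1.35, a log2 fold ratio at like span of −0.35, a −log10 q difference of 4.22, a retention difference of 7.06 points and a cut-interval difference of 6.30 points, and the end-share difference at like span turned to −0.81 points. With 4 or more lines there were 2193, with a span ratio of 22.8, a fold ratio of 1.66, a −log10 q difference of 8.82 and a cut-interval difference of 17.0 points. At a −log10 q of 5 or more the span ratio was 9.89, the fold ratio 1.18 and the −log10 q difference 3.93; this threshold is not independent of fold. Against peaks on 2 lines the ratios were 2.43 for span, 1.20 for fold and 0.743 for distance, and the differences were −0.26 in log2 fold at like span, 3.74 in −log10 q, 5.26 points in retention and 7.40 points in cut intervals. Matched on summed length in place of span, the log2 fold ratio was −0.20, and 3 signs turned: distance had a log2 ratio of −0.16, cut intervals a difference of 4.08 points and retention one of 1.715 points. The cause was not tested. With pieces closer than 402 bp joined, 4180 members were left because fewer gaps then count. Joining pieces closer than 100 bp changed nothing, since no gap was that narrow, and autosomes only, leaving out pieces under 50 bp and leaving out the first and last 5 Mb moved no value beyond the spread, although the last brought the earlier-class difference to 8.60 points. The joining at 402 bp, the restriction to peaks whole inside their interval, and the results on ends, neighbours, inner pieces and cut intervals were added once the data had been seen. The planned comparisons of GC content and promoters were not run, as no genome or annotation of hg19 was used here. No paired analysis was possible because both libraries enter as 1 intersected set, for which neither can be left out.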
